A study of Mus musculus with 4 samples.

Results

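The genes of the core circadian clock were examined in the major salivary glands (SGs) of mice without Myd88, the adaptor protein through which most Toll-like receptors and the interleukin-1 receptor signal. The members were the 10 genes Arntl, Clock, Npas2, Per1, Per2, Per3, Cry1, Cry2, Nr1d1 and Dbp, taken by gene symbol and represented by 13 of the 55681 probes and by 10 of the 34844 named genes of the array. RNA came from submandibular glands (SMGs) together with sublingual glands (SLGs) of female C57/BL6 mice aged 10 weeks, with 2 arrays labelled Myd88-/- (the labels' Myd88-null) and 2 arrays labelled Myd88+/+ (wild type), called the Myd88-/- and the Myd88+/+ arrays from here on. The Myd88-/- mice carried the deletion in all cells, had been backcrossed to this strain and, like the Myd88+/+ controls, were born to heterozygous parents, and no treatment of either genotype is named for these arrays. The mice were kept in a light/dark cycle, and the hour at which the glands were taken is not given in the sources used here. Nothing in the labels says that each array holds RNA of a separate animal, so the p-values measure the spread between these arrays, which may be technical.

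The circadian clock of a cell is a transcriptional loop. Arntl (BMAL1) pairs with CLOCK or NPAS2 and switches on the Per and Cry genes through E-boxes, and the PER and CRY proteins return to the nucleus and block this pair. In an interlocking loop the same pair switches on Nr1d1 (REV-ERB alpha), which represses Arntl, and Dbp, which acts on target genes through D-boxes, so that in most peripheral tissues, SGs included, Arntl transcripts peak at a different time of day from those of Dbp, Nr1d1 and the Per genes.

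Promoter windows from 250 bases before to 50 bases after a transcript start were available from RefSeq (GRCm38.p6) for 9 of the 10 members, with Per2 the exception. Each window was searched on both strands for the E-box CACGTG, the D-box TTATGTAA and AGGTCA, the core of the site bound by ROR and REV-ERB proteins. None of the 3 motifs overlaps another in the stretches shown. The stretches below are shown because they hold the letters through which the loop is known to act, with the motif in capitals and the strand of the gene read 5′ to 3′. The Arntl stretch lies at chr7:113207530-113207559 (+ strand), and its motif begins 31 bases after the start of transcription. The Per3 stretch lies at chr4:151044802-151044884 (- strand), and its D-boxes begin 205 and 158 bases before the start. The Per1 stretch lies at chr11:69098769-69098802 (+ strand) with the E-box 166 bases before the start, and the Cry1 stretch at chr10:85185095-85185128 (- strand) with the E-box 60 bases before it.
Arntl: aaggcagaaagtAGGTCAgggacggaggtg
Per3: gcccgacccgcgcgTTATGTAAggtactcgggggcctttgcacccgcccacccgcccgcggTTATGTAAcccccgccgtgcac
Per1: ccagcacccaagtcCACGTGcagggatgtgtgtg
Cry1: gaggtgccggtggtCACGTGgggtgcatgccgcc

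The E-box letters were present in the windows of 2 of the 9 members (Per1 and Cry1), against 7.15% of the 32851 windows of the table. The D-box letters were present in 1 of the 9 (Per3, with 2 matches), against 0.938% of all windows. The AGGTCA letters were present in 3 of the 9 (Arntl, Clock and Per1), against 16.3% of all windows. The windows of Dbp, Cry2, Nr1d1 and Npas2 held none of the 3. Bases outside the windows and variants of the letters were not searched, so this does not show that these genes lack the motifs. Genes with several transcript starts have a window for each, so that the 9 members had 13 windows, and a member counted when any of them held the letters.

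Signals are given as the log2 processed intensity of a probe minus the 75th percentile of its array, so that 0 is the 75th percentile and each unit is a doubling. The 75th percentile was an intensity of 256 and 237 on the Myd88-/- arrays, against 321 and 269 on the Myd88+/+ arrays. The share of probes well above background differed within each genotype. It was low on Myd88-/- array 1 (52.2%) and Myd88+/+ array 2 (55.1%). Myd88-/- array 2 (68.4%) and Myd88+/+ array 1 (74.2%) had higher shares. Whether a dim gene was well above background may therefore depend on the array as well as on the gene, which was not tested. No spot was saturated, and no spot of a clock gene was marked as an outlier. All 4 arrays lay on 1 slide and were read in 1 scan. The probe of the deleted gene, Myd88, gave 1.51 and 1.41 on the Myd88-/- arrays, against 1.15 and 1.07 on the Myd88+/+ arrays. It was therefore not lower on the former, and since the deleted exons are not given in the sources used here it does not check the labels. The 10 markers of gland epithelium (such as Aqp5, the water channel of acinar cells, and Muc19, the gel-forming mucin of the SLG) were well above background on all 4 arrays, with 6 higher and 4 lower on the Myd88-/- arrays and a median log2 difference of 0.04. Their summed signal was 3740 and 3506 times the 75th percentile on the Myd88-/- arrays and 2592 and 2853 times on the Myd88+/+ arrays, a difference carried mainly by Smgc, a secreted mucin-like protein of the SMG, with 10.08 and 9.95 against 8.33 and 8.56.

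The largest differences among the clock genes were those of Arntl and Dbp, and they pointed in opposite directions. Arntl was 2.57-fold higher and Dbp 2.99-fold lower on the Myd88-/- arrays. Per1, Per2 and Per3 lay lower on both of these arrays than on either Myd88+/+ array, whereas the arrays of the genotypes overlapped for Clock, Cry2 and Nr1d1. Npas2 and Cry1 were too dim to be tested. In limma's test with Benjamini-Hochberg adjustment over all 22312 genes tested, 0 of the 8 clock genes tested passed an adjusted p of 0.05, as was the case for 0.00% of all genes. With 2 arrays a genotype, the smallest p of an exact two-sided permutation test is 0.333.

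Without adjustment, 4 of the 8 clock genes tested had p under 0.05 in the same fit, against 16.7% of all genes tested. Of these, 1 was higher on the Myd88-/- arrays (Arntl, against 9.82% of all genes) and 3 were lower (Dbp, Per1 and Per3, against 6.83%). The arrays of the genotypes did not overlap for 5 of the 8, against 52.0% of all genes, with 1 of them higher (33.2%) and 4 lower (18.7%). Per2 and Per3 passed the filter only through the Myd88+/+ arrays, where they are high, so their direction was in part fixed by the filter and these counts are a description. With only probes well above background on all 4 arrays, 3 of the 6 clock genes left (Arntl, Dbp and Per1) had an unadjusted p under 0.05, against 18.2% of the genes tested. The median log2 difference of the 8 was -0.27, and that of all genes tested was 0.06. The count of 4 rested in part on single arrays. It was 2 (Arntl and Dbp) without Myd88-/- array 1, when 11.1% of all genes tested had such a p, and 2 without Myd88+/+ array 1 (10.3%). It was 5 without Myd88-/- array 2 (13.6%), where Per2 was added, and 3 without Myd88+/+ array 2 (9.82%).

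**Figure D1:**
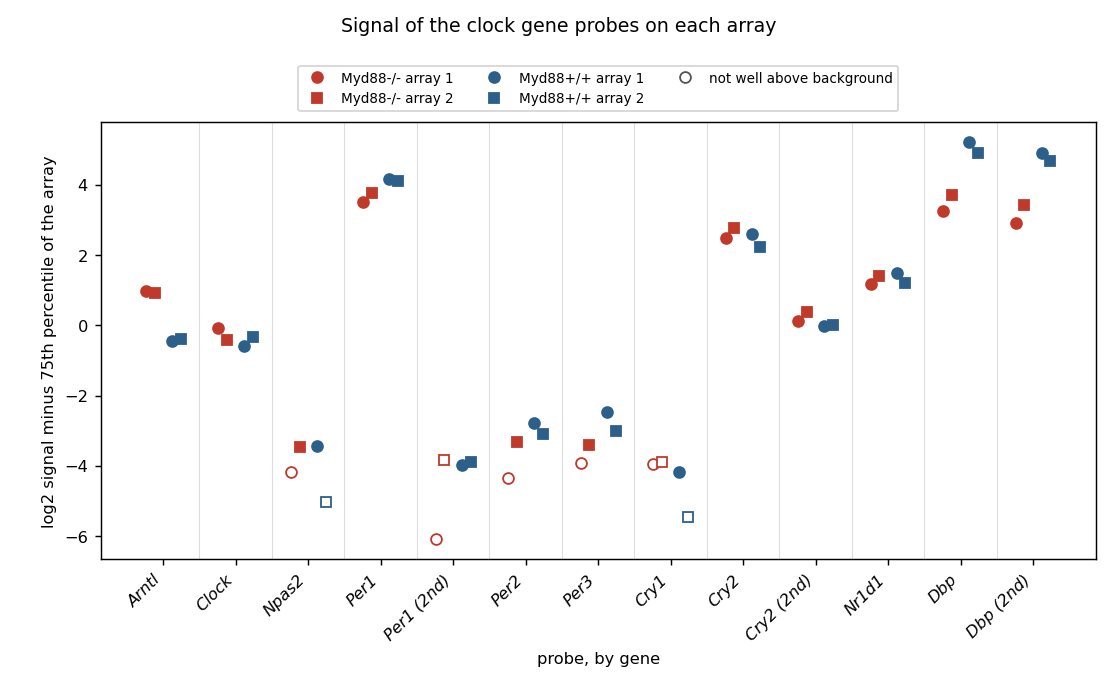
Signal of each of the 13 probes of the 10 clock genes (x axis) on the 4 arrays, as log2 intensity minus the 75th percentile of the array (y axis); red points are the 2 Myd88-/- arrays, blue points the 2 Myd88+/+ arrays, and open points were not well above background. The red points of Arntl lie above 0.9 and the blue points below -0.3, and both probes of Dbp show the blue points above the red ones.

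Most markers of cell types other than gland epithelium lay lower on the Myd88-/- arrays. Of all genes tested, 52.0% had arrays that did not overlap between the genotypes, and 18.7% lay lower without overlap. All 11 tested of 12 skeletal muscle markers had arrays that did not overlap, though 5 of them passed the filter only through the Myd88+/+ arrays, where they are high, and 6 were well above background on all 4 arrays. Their summed signal was 3.11 and 3.13 times the array's 75th percentile on the Myd88-/- arrays and 28.4 and 156 times on the Myd88+/+ arrays. The defining muscle genes Myh2, Myh4 and Mb were not well above background on either Myd88-/- array. The marker not tested, Mylpf, was well above background on Myd88+/+ array 2 alone. Its arrays overlapped, with -6.11 and -5.72 on the Myd88-/- arrays and -6.87 and -3.97 on the Myd88+/+ arrays. The 12 lymphocyte markers had lower means, with a median log2 difference of -3.16, and 10 of them had arrays that did not overlap. On all 4 arrays 6 were well above background, and 4 of these did not overlap. Cd3e (1.73 and 2.00 against 1.87 and 1.97) and Cd4 overlapped and made up most of the summed signal on the Myd88-/- arrays. The sums were 14.2 and 13.7 on the Myd88-/- arrays and 37.1 and 24.7 on the Myd88+/+ arrays, and Cd8a, Ms4a1 and Faim3 were among those not well above background on either Myd88-/- array. Of 7 tested of 8 adipocyte markers, 6 lay lower without overlap, whereas Retn overlapped (1.64 and -0.07 against 1.11 and 0.63). The sums were 166 and 262 against 370 and 372, and Lep was well above background on no array. According to the labels, lymph nodes, connective tissue and fat had been dissected away. In gland tissue, fewer cells of a type and less RNA per cell cannot be told apart, and the part of these cell types in the clock gene values was not tested.

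Arntl encodes the subunit of the activating pair without which the loop does not run. Its probe (chromosome 7, 120457261 to 120457320, + strand, NCBI37/mm9) starts at base 2528 of the transcript. The log2 signal of Arntl was 0.98 and 0.91 on the Myd88-/- arrays, against -0.46 and -0.38 on the Myd88+/+ arrays. Both Myd88-/- arrays thus lay above both Myd88+/+ arrays, and the arrays of one genotype lay within 0.1 of each other. The means were 0.94 ± 0.05 (SD, n = 2) and -0.42 ± 0.05 (SD, n = 2), and the log2 difference was 1.36 with a standard error of 0.10 and a 95% interval of 1.07 to 1.65. Its unadjusted p from limma was 0.000264 and its adjusted p 0.194. Of the 22312 genes tested, 22 had a smaller p and 136 a larger positive difference. The 4 differences between a single Myd88-/- array and a single Myd88+/+ array ranged from 1.29 to 1.43. Before scaling, the processed intensity of this probe was 505 and 447 against 234 and 207.

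Clock encodes the usual partner of Arntl. Its log2 signal was -0.06 and -0.42 on the Myd88-/- arrays, against -0.59 and -0.34 on the Myd88+/+ arrays, so the genotypes overlapped. The log2 difference was 0.22 with a 95% interval of -0.31 to 0.75 (adjusted p = 0.597 from limma), and the interval spans 0. Taken within an array, Arntl minus Clock was 1.04 and 1.33 on the Myd88-/- arrays and 0.14 and -0.04 on the Myd88+/+ arrays, a difference of 1.14 that no scaling of whole arrays can alter. This pair was chosen after its values were seen. Npas2, which can take the place of Clock, was well above background on Myd88-/- array 2 and Myd88+/+ array 1 alone, with -3.46 and -3.44. It was at -4.16 and -5.03 on the other arrays and was not tested.

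Among the repressors, Per1 had the narrowest spread of the Per genes. Its brighter probe (chromosome 11, 68923364 to 68923423) gave 3.51 and 3.77 on the Myd88-/- arrays, against 4.18 and 4.11 on the Myd88+/+ arrays. The Myd88-/- arrays were both lower, by 0.50 on the log2 scale (1.42-fold), with a 95% interval of the difference from -0.89 to -0.11, an unadjusted p of 0.024 and an adjusted p of 0.248 from limma. The other Per1 probe (chromosome 11, 68919895 to 68919954), which matches a separate transcript record, was not well above background on either Myd88-/- array. It gave -6.09 and -3.82 there and -3.98 and -3.88 on the Myd88+/+ arrays, so its arrays overlapped. With the mean of both probes in place of the brighter one, the log2 difference of Per1 was -0.77 and its unadjusted p 0.184.

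Per2 and Per3, which encode the other PER repressors, were dim and were measured well above background on both Myd88+/+ arrays but only on Myd88-/- array 2 of the other genotype. The log2 signal of Per2 was -4.35 and -3.31 on the Myd88-/- arrays, against -2.77 and -3.09 on the Myd88+/+ arrays. The log2 difference of Per2 was -0.90 with a 95% interval of -2.07 to 0.27 (adjusted p = 0.372 from limma). The log2 signal of Per3 was -3.90 and -3.40 on the Myd88-/- arrays, against -2.47 and -3.00 on the Myd88+/+ arrays. The log2 difference of Per3, the gene whose promoter holds the D-boxes shown above, was -0.91 with a 95% interval of -1.73 to -0.10, an unadjusted p of 0.036 and an adjusted p of 0.270. Since both genes entered the test through the Myd88+/+ arrays, these p-values do not stand apart from the filter. Both genes lay lower on each Myd88-/- array than on each Myd88+/+ array, but with normexp background correction the differences shrank to -0.09 for Per2 and -0.26 for Per3. That setting adds an offset of 50 to every signal, and the processed intensities were 12.5 to 47.1 for Per2 and 17.1 to 57.8 for Per3.

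The Cry genes encode the partners of the PER proteins. The brighter Cry2 probe gave 2.50 and 2.76 on the Myd88-/- arrays, against 2.62 and 2.25 on the Myd88+/+ arrays, with a log2 difference of 0.20 and a 95% interval of -0.34 to 0.75 (adjusted p = 0.643 from limma). The other Cry2 probe, which matches another transcript record, gave 0.13 and 0.38 against -0.03 and 0.02. Its arrays did not overlap, with a log2 difference of 0.25, whereas those of the brighter probe did. Cry1 was well above background on Myd88+/+ array 1 alone, at -4.18. It gave -3.95 and -3.89 on the Myd88-/- arrays and -5.46 on Myd88+/+ array 2, and was not tested.

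Nr1d1, the repressor of Arntl, showed no separation of the genotypes. Its probe (chromosome 11, 98630526 to 98631028, - strand, NCBI37/mm9) covers 503 bases of the genome and so spans an intron. The log2 signal of Nr1d1 was 1.19 and 1.41 on the Myd88-/- arrays, against 1.48 and 1.20 on the Myd88+/+ arrays. The log2 difference was -0.04 with a 95% interval of -0.50 to 0.41 (adjusted p = 0.916 from limma). Its sign was not settled, since it was 0.06 without Myd88-/- array 1 and 0.10 without Myd88+/+ array 1.

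Dbp encodes the D-box-binding activator that carries the rhythm of the loop to output genes. Its brighter probe (chromosome 7, 52965322 to 52965381, + strand, NCBI37/mm9) gave a log2 signal of 3.26 and 3.72 on the Myd88-/- arrays, against 5.22 and 4.92 on the Myd88+/+ arrays. Both Myd88-/- arrays were lower than both Myd88+/+ arrays, with means of 3.49 ± 0.32 (SD, n = 2) and 5.07 ± 0.21 (SD, n = 2). The log2 difference was -1.58 with a standard error of 0.22 and a 95% interval of -2.21 to -0.95, an unadjusted p of 0.0026 and an adjusted p of 0.194 from limma. Of all genes tested, 277 had a smaller p and 403 a difference further below 0. Differences between single arrays ranged from -1.96 to -1.20. The processed intensity before scaling was 2459 and 3121 against 11945 and 8138. The other Dbp probe, which starts 139 bases further along the same transcript, gave 2.91 and 3.44 against 4.90 and 4.68, a log2 difference of -1.62, so the probes gave the same picture. Since they read the same RNA on the same arrays, they are not separate replicates.

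Differences between clock genes taken within an array do not depend on how arrays were scaled to each other. Arntl minus Dbp was -2.28 and -2.81 on the Myd88-/- arrays, against -5.68 and -5.30 on the Myd88+/+ arrays. The ratio of Arntl to Dbp signal was thus 7.69-fold higher on the Myd88-/- arrays, and the arrays of the genotypes did not overlap. Dbp minus Nr1d1, a pair chosen after its values were seen, was 2.07 and 2.31 against 3.74 and 3.71. Both genes are known targets of the same activating pair. Clock minus Per3 was 3.84 and 2.98 against 1.88 and 2.67, with both genes well above background on 3 of the 4 arrays. Npas2 minus Nr1d1 and Cry1 minus Per2 differed by 0.47 and 1.80 between the genotypes, but both genes of the pair were well above background on only 2 arrays and 1 array. Arntl, Clock, Nr1d1 and Dbp were well above background on all 4 arrays, and Npas2, Cry1, Per2 and Per3 were not.

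**Figure D2:**
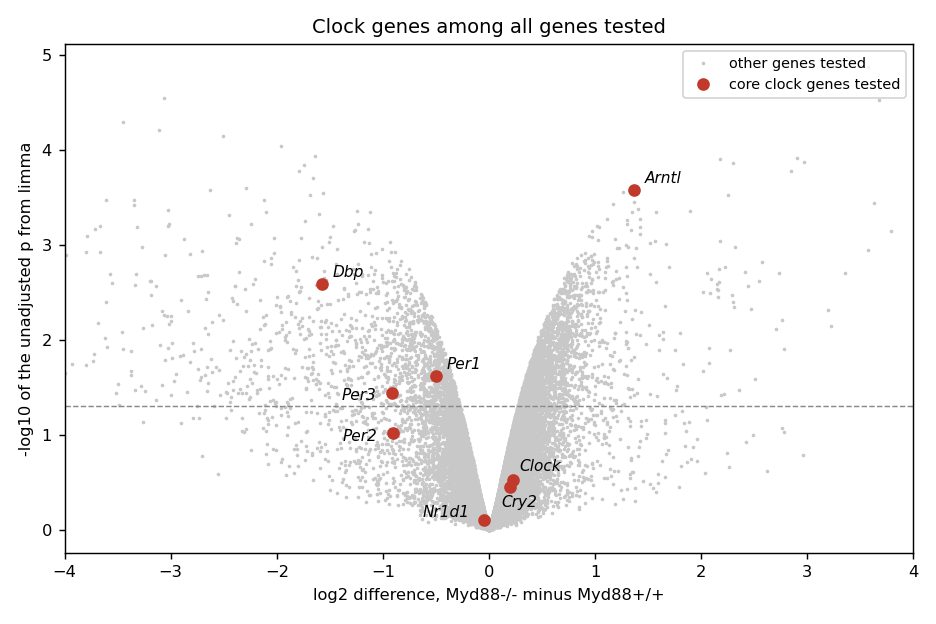
Log2 difference of each of the 22312 genes tested, Myd88-/- minus Myd88+/+ (x axis), against its -log10 unadjusted p from limma (y axis); red points are the 8 clock genes tested, grey points the other genes, and the dashed line marks the unadjusted threshold of 0.05, with 45 genes outside the plotted range of -4 to 4. Arntl lies near the upper edge of the genes with its size of difference, and Dbp, Per1 and Per3 lie above the dashed line among many other genes.

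Of 11 other transcription factors of the clock loops, 5 lay higher and 6 lower on the Myd88-/- arrays, where 13295 of all 22312 genes tested lay higher and 9017 lower. Of the 11, 0 passed the adjusted threshold, 0 were higher and 3 lower at an unadjusted p under 0.05 (9.82% and 6.83% of all genes), and the median log2 difference was -0.02. The 3 were Hlf, Tef and Nr1d2. Hlf and Tef encode the closest relatives of Dbp, which bind the same D-box. The log2 signal of Hlf was -1.98 and -1.87 on the Myd88-/- arrays, against -1.37 and -1.35 on the Myd88+/+ arrays, a difference of -0.56 (unadjusted p = 0.00676, adjusted p = 0.203 from limma). The log2 signal of Tef was 4.88 and 4.81 against 5.62 and 5.20, a difference of -0.57 (unadjusted p = 0.038, adjusted p = 0.274) that was -0.36 without Myd88+/+ array 1. All 3 D-box activators, Dbp included, thus lay lower on both Myd88-/- arrays, though with normexp background correction the difference of Hlf was -0.28.

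Nr1d2, the REV-ERB relative of Nr1d1, gave 2.08 and 2.08 on the Myd88-/- arrays, against 2.37 and 2.50 on the Myd88+/+ arrays, a log2 difference of -0.35 (unadjusted p = 0.032, adjusted p = 0.262 from limma). Its arrays did not overlap, whereas those of Nr1d1 did. Whether the genes differ from each other was not tested. Rora and Rorb, which encode activators that compete with the REV-ERB proteins for the AGGTCA site, had differences of 0.31 and -0.02, neither with an unadjusted p under 0.05. The arrays of Rora did not overlap, as was so for 52.0% of all genes tested, and those of Rorb did. Nfil3, the repressor that competes with Dbp at the D-box, differed by 0.31 with overlapping arrays. The E-box repressors Bhlhe40 and Ciart (on the array as Gm129) differed by -0.50 and -0.64, neither with an unadjusted p under 0.05. Ciart was not well above background on Myd88-/- array 1, so it passed the filter only through the Myd88+/+ arrays. Its difference was -0.06 with normexp background correction and ranged from -1.04 to -0.24 with 1 array left out. Bhlhe41, a further E-box repressor, could not be placed, with -3.47 and -1.72 on the Myd88-/- arrays, against -2.03 and -3.39 on the Myd88+/+ arrays.

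Of 7 output genes of the clock, 1 lay higher and 6 lower, with a median log2 difference of -0.22, and 2 of the lower ones had an unadjusted p under 0.05 (6.83% of all genes were lower at this p). Wee1, a kinase that holds back entry into mitosis, gave -1.06 and -1.08 on the Myd88-/- arrays, against -0.66 and -0.64 on the Myd88+/+ arrays, a difference of -0.42 (unadjusted p = 0.014, adjusted p = 0.219 from limma), which was -0.26 with normexp background correction. Nampt, the rate-limiting enzyme of NAD salvage, gave 0.49 and 0.76 against 1.05 and 1.00, a difference of -0.40 (unadjusted p = 0.045, adjusted p = 0.291), or -0.27 without Myd88-/- array 1. The gene that lay higher was Noct (on the array as Ccrn4l), a deadenylase relative, with a difference of 0.24.

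The 14 regulators of clock proteins (kinases, ubiquitin ligases and cofactors) split evenly, with 7 higher, 7 lower and a median log2 difference of -0.01. At an unadjusted p under 0.05, 0 were higher and 2 lower, against 9.82% and 6.83% of all genes tested. In either direction, 16.7% of all genes tested had such a p. Those with an unadjusted p under 0.05 were the cell cycle and clock gene Timeless, with -0.59 and -0.59 on the Myd88-/- arrays, against -0.09 and 0.14 on the Myd88+/+ arrays, and the deacetylase Sirt1, with 0.39 and 0.44 against 0.85 and 0.76. Their log2 differences were -0.62 and -0.38 (adjusted p = 0.208 and 0.241 from limma). The kinases that mark PER proteins for decay, Csnk1d and Csnk1e, differed by -0.05 and -0.19, and Btrc, whose product marks PER proteins for removal, by 0.04.

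**Figure D3:**
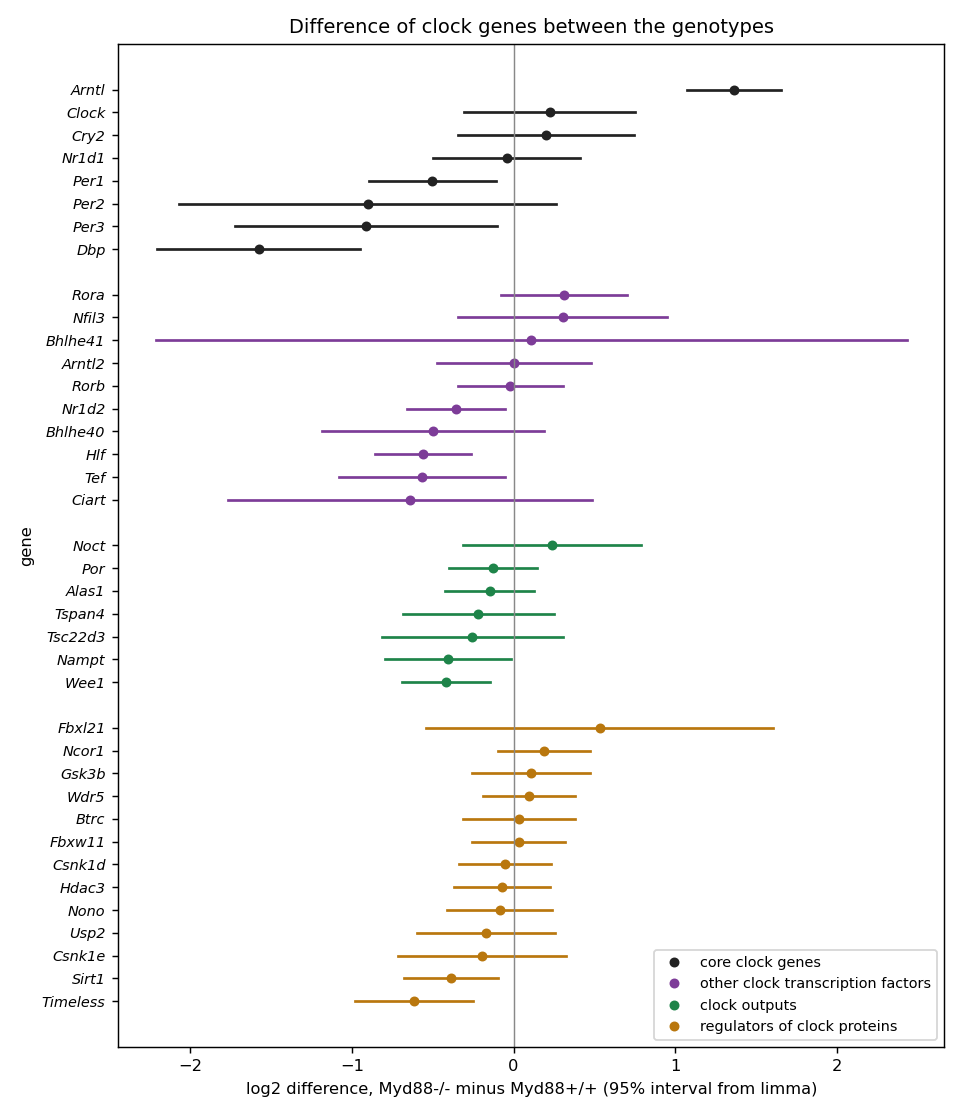
Log2 difference, Myd88-/- minus Myd88+/+ (x axis), with its 95% interval from limma (bars) for the 8 core clock genes tested and for other clock transcription factors, outputs and regulators of clock proteins (y axis), with the colour giving the group. The intervals of Arntl, Dbp, Per1 and Per3 leave out 0, as do those of Hlf, Tef, Nr1d2, Wee1, Nampt, Timeless and Sirt1.

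Genes that follow signals known to set peripheral clocks were counted in the same way, against 16.7% of all genes with an unadjusted p under 0.05. Of 8 glucocorticoid-induced genes, 2 lay higher and 6 lower, and 1 had an unadjusted p under 0.05. This was the kinase gene Sgk1, with 2.20 and 2.44 on the Myd88-/- arrays, against 2.98 and 3.13 on the Myd88+/+ arrays, a difference of -0.74 on the log2 scale (adjusted p = 0.204 from limma). Fkbp5, a sensitive target of the same hormone, lay on the other side with a difference of 0.53 (unadjusted p = 0.098). Of 7 temperature-responsive genes on the array, 5 lay higher and 2 lower, and 0 had an unadjusted p under 0.05, with Cirbp, a cold-inducible RNA-binding protein, at 0.36. Of 8 immediate early genes, which respond within minutes to handling and stress, 5 lay higher and 3 lower, and 1 had an unadjusted p under 0.05. This was Fosb, with 0.05 and 0.15 against -0.39 and -0.39, a difference of 0.49 (adjusted p = 0.209). Among the higher genes, Junb passed the filter only through the Myd88-/- arrays, so its direction was in part fixed by the filter. In the 3 lists together 0 genes passed the adjusted threshold.

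Outside the lists, the genes whose values were most like those of Arntl were sought among 20488 genes well above background on all 4 arrays, by the root mean square difference of values centred on their mean over the 4 arrays. The closest named genes were 4833423E24Rik, at 0.045, and A630073D07Rik, at 0.059, with log2 differences of 1.31 and 1.26. The third closest, a probe named only by its position on chromosome 10, was at 0.070 with a log2 difference of 1.40. The closest to Dbp were Pole, the catalytic subunit of DNA polymerase epsilon, at 0.086, Mgst2, a microsomal glutathione transferase, at 0.123, and Ets1, a transcription factor abundant in lymphocytes, at 0.123. Their log2 differences were -1.44, -1.59 and -1.39. Over 4 arrays, such a likeness describes the values and was not tested.

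The differences of Arntl and Dbp kept their sign and an unadjusted p under 0.05 under every setting tried, while their adjusted p depended on the background correction and on how the spread was estimated. After normexp background correction Arntl differed by 1.13 (adjusted p = 0.032 from limma) and Dbp by -1.61 (adjusted p = 0.045), when 79 genes (0.354%) passed. With trended and robust moderation in limma the adjusted p was 0.021 for Arntl and 0.036 for Dbp, when 482 genes (2.16%) passed. The other 6 clock genes tested did not pass under either. When each array was left out in turn, Arntl ranged from 1.33 to 1.40 and Dbp from -1.81 to -1.35. The range of Arntl was the narrowest of the 8 clock genes tested.

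**Figure D4:**
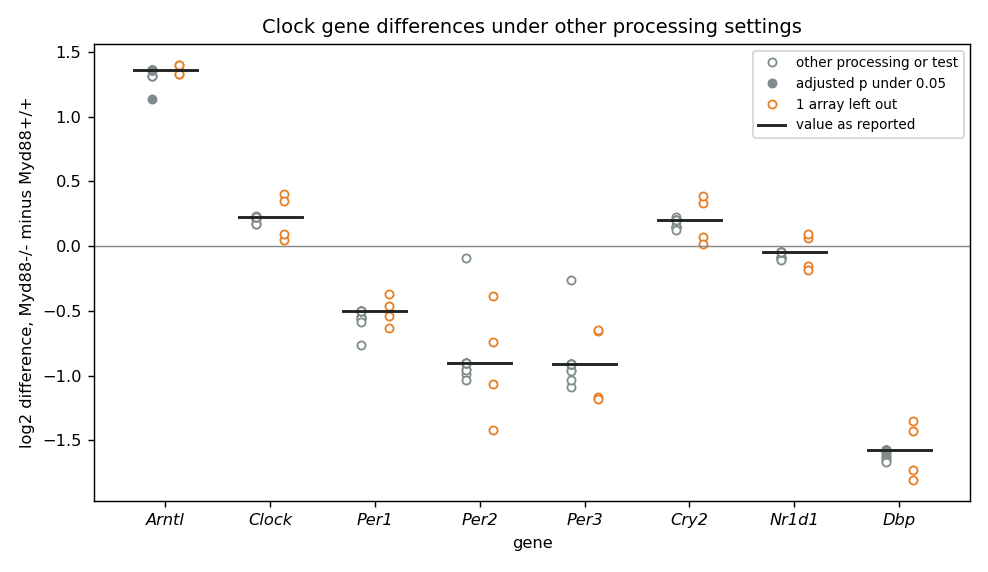
Log2 difference, Myd88-/- minus Myd88+/+ (y axis), of the 8 clock genes tested (x axis) as reported (black line), under 13 other processing settings or tests (grey) and with 1 array left out (orange); filled points had an adjusted p under 0.05. Filled points are seen for Arntl and Dbp, and the points of Nr1d1 fall on both sides of 0.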

How the data were processed

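The deposited scanner files hold, for each spot, a processed intensity that the authors' software (Agilent Feature Extraction 10.7.3.1) had corrected for background and spatial trend, with no normalization between arrays, and flags for spots well above background, saturated or outlying. A series table was not used, because its 4 value columns match no sample's labels. From the files, log2 processed intensity was taken minus the 75th percentile of all non-control spots of the array. Outlier spots were dropped before spots of the same probe were averaged. The filter kept probes well above background on every array of either genotype, and a gene was represented by its brightest probe that passed. The fit used limma 3.58.1 (lmFit and eBayes, in R 4.3.3), with Benjamini-Hochberg adjustment over all 22312 genes and a threshold of 0.05. The number of arrays, 2 a genotype, limits the precision. Probe positions are those of the files (NCBI37/mm9), and promoter windows and their positions are from RefSeq (GRCm38.p6). The paper's legends give n = 3 and name SMGs, whereas the labels give 2 arrays a genotype of SMGs with SLGs.

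The members and the gene lists were chosen with earlier results of these data known. Outside the members, genes named are Nr1d2, Tef, Hlf, Bhlhe41 and Ciart, those of each clock, hormone, temperature and immediate early list with an unadjusted p under 0.05 and non-overlapping arrays, and the 3 genes most like Arntl and like Dbp. Nfil3, Rora, Rorb, Bhlhe40, Noct, Csnk1d, Csnk1e, Btrc, Fkbp5, Cirbp and Junb are named besides, after their values were seen. So are the pairs Dbp with Nr1d1 and Arntl with Clock. Some list genes are counted but not reported singly here. Deviations from the genotype mean correlated over genes at -0.37 for arrays with the same replicate number, so the same number does not pair the arrays. With crossed numbers the correlation was 0.37. This is the same value with its sign turned, because the deviations within a genotype mirror each other. Arrays with crossed numbers thus varied together, and they also had the more similar shares of probes well above background. The source of this was not tested. The 16 other settings chosen were normexp background correction (offset 50), other scalings and filters, the mean of a gene's probes, other tests, the replicate block and each array left out, and 1 block of crossed numbers was added after seeing the data.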

Additional observations from a re-analysis of the deposited data

How the results depend on the processing

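The number of clock genes with an adjusted p under 0.05 was 0 as reported, 2 (Arntl and Dbp) with normexp background correction and with trended and robust moderation, and 0 in every other setting run, when between 0 and 402 genes passed. Arntl was then at 1.13 and 1.36, and Dbp at -1.61 and -1.58. The number with an unadjusted p under 0.05 was 4 as reported, 2 with median scaling (4.46% of all genes, against 16.7% as reported), with no filter on dim probes (7.33%) and with the methods' t-test (13.2%), and 2 to 5 when 1 array was left out. With the replicate number as a block it was 2 (Arntl and Dbp, 10.8% of all genes), against 5 with the crossed numbers (18.6%), and 0 passed the adjusted threshold in either. With 1 array left out a genotype has a lone array, which is assumed to vary like those of the other. The log2 difference then ranged from 1.33 to 1.40 for Arntl, -1.81 to -1.35 for Dbp, -0.63 to -0.37 for Per1, -1.42 to -0.38 for Per2, -1.18 to -0.65 for Per3, 0.05 to 0.40 for Clock, 0.02 to 0.39 for Cry2, -0.18 to 0.10 for Nr1d1, -0.76 to 0.98 for Bhlhe41 and -0.19 to 1.12 for Npas2 minus Nr1d1. With normexp, Cry1 minus Per2 moved to 0.39 and Clock minus Per3 to 0.47. This setting adds an offset of 50 to every signal. The processed intensities of Cry1, Per2 and Per3 lay between 6.13 (Cry1, Myd88+/+ array 2) and 57.8 (Per3, Myd88+/+ array 1), so the offset is large beside them. The part of the offset in these shifts was not tested. Among other genes, Sgk1 had an adjusted p of 0.046 with trended and robust moderation. Dim genes are limited by their signal over background, and all values by the number of arrays.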
